A study of Mus musculus with 28 samples.

Results

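The Notch receptors, ligands and targets described here were 10 genes, namely the 4 receptors Notch1, Notch2, Notch3 and Notch4, the 4 ligands Jag1, Jag2, Dll1 and Dll4, and the 2 target genes Hes1 and Hey1. They were taken by symbol from a raw count table of 29068 mouse genes, of which 18107 passed the filter on low counts, and all 10 were among these. The table covered 28 libraries made from the total RNA of skin, 4 at each of Day0, Day3, Day5, Day7, Day10, Day12 and Day14. All libraries came from C57BL/6J mice, MLKL+/+ in the study, and carry the label of natural healing, which in the study followed a full-thickness punch wound of the back. The tissue was whole skin, so every value averages over epidermis, follicles, vessels, fibroblasts and blood-borne cells.

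The first time point carries the label Day0 and served as the reference. The study's methods count its time points from day 1, and whether the Day0 skin had been wounded is not given in the sources used here. Neutrophil markers (4 genes) summed to between 14.6 and 40.9 units of normalised CPM, the count scaled to library size, on Day0, between 4192 and 5308 on Day3 and between 14.8 and 18.5 on Day14. The study used young adult mice of both sexes. The labels do not say whether the 4 libraries of a day were 4 separate mice, and p-values therefore measure only the spread between these libraries, which may be technical.

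Notch signalling passes between cells that touch. A ligand of the Jagged or Delta-like family on one cell binds a Notch receptor on its neighbour, and proteolysis then frees the receptor's intracellular domain, which joins the DNA-binding protein RBPJ in the nucleus and switches on repressor genes of the Hes and Hey families. In skin the pathway is known for its part in keratinocyte differentiation and the upkeep of hair follicles, and in vessels for the choice between tip and stalk cells and for the contact of endothelial with mural cells.

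The results turn in large part on Notch1 and Jag1, which were highest on the last days, and on Notch4, which was highest on the early days. The bases just before the start sites of these 3 genes are therefore shown, from RefSeq on build GRCm38.p6, 5′ to 3′ on the strand of the gene and without bases in annotated exons. Capitals mark the GC box GGGCGG or its reverse complement, a motif of the SP/KLF factors. Notch1 is on the minus strand at chr2:26503825-26504072, Jag1 on the minus strand at chr2:137116645-137116770 and Notch4 on the plus strand at chr17:34564045-34564267.
Notch1: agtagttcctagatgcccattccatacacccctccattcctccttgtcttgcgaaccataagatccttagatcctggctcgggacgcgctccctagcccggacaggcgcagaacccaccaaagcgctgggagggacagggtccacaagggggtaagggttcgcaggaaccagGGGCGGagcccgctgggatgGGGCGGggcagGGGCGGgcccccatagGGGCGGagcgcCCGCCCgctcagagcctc
Jag1: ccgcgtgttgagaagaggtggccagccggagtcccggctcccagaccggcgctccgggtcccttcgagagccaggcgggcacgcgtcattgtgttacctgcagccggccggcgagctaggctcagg
Notch4: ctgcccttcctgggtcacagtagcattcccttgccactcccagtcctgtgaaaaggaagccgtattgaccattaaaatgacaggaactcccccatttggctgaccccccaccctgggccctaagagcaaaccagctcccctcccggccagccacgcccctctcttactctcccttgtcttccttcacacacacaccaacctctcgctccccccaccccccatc

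The Notch1 stretch held 5 GC boxes, and those of Jag1 and Notch4 held 0. Over the full 250 bases before the start site, G and C made up 66% for Notch1, 57.2% for Jag1 and 58.4% for Notch4, beside a median of 52.4% over 32851 mouse start sites. Of the 8 members with a promoter entry, 5 (Notch1, Notch2, Notch3, Jag2 and Dll4) held a GC box in these 250 bases on either strand, as did 32.7% of all start sites. The Jag2 window lies wholly in annotated Jag2 exon, as both Dll1 windows lie in exons of Dll1 or of A930024N18Rik, so these are not bases outside a transcript. The core word of RBPJ sites, TGGGAA on either strand, was in 0 of the members' windows and in 21.6% of all. The AP-1 word TGANTCA was in 1 of the windows of Dll1 and in 6.75% of all. Hes1 and Hey1 had no entry. A match of letters is a description of the sequence and not a bound site, and a missing match says nothing of the factor.

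The receptor and ligand genes lie on several chromosomes of the same build. Notch1 spans positions 26457902 to 26503822 of chromosome 2, which also carries Jag1 (137081451 to 137116520) and Dll4 (119325784 to 119335666). Notch3 (32120820 to 32166896), Notch4 (34564286 to 34588543) and Dll1 (15367354 to 15376932) are on chromosome 17. Notch2 and Hey1 are on chromosome 3, Jag2 is on chromosome 12 and Hes1 on chromosome 16. All 10 are protein-coding.

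Library totals lay between 36706513 and 40655764 counts. The spread between libraries, as the biological coefficient of variation over all genes, was 26.5% on Day0 and 5.77% to 10.8% on the other days, so Day0 was the least precise of the groups. Its libraries fell into pairs, replicates 2 and 3 being alike (a chi-square comparison of their counts gave a median of 1.67 over genes) and replicates 1 and 4 less so (4.46), while libraries of different pairs were at 9.39 to 12.0. Most members followed this split. Notch1, Notch3, Notch4, Jag1, Jag2, Dll1, Hes1 and Hey1 were higher in replicates 1 and 4 than in 2 and 3. Notch2 and Dll4 did not follow it. Each comparison with Day0 was therefore also fitted without replicates 1 and 4 and without replicates 2 and 3, a step added after the data were seen. Of 37 calls of members against Day0, 8 and 6 were lost in these fits, 6 and 4 were gained, and 23 were kept in both. The changed calls are given with each member. Markers of skin were present, with suprabasal keratinocyte genes summing to between 3529 and 3945 CPM on Day0. Skeletal muscle genes were also high there, between 15710 and 27710 CPM, and between 3554 and 8941 CPM on the later days. One library, Day5 replicate 4, stood apart by gene length, and Day7 replicate 4 showed a smaller trend of the same kind. Both are described with the receptors.

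Levels of different genes were compared per length, as the FPKM values the authors deposited. On Day0 the order of the mean FPKM ± SD (n = 4) was Jag2 at 17.6 ± 4.29, Hes1 at 16.2 ± 1.12, Notch1 at 11.0 ± 1.09, Notch2 at 10.6 ± 0.907 and Notch3 at 8.48 ± 0.436. The lower part held Jag1 at 4.59 ± 0.895, Dll1 at 3.59 ± 0.853, Dll4 at 3.04 ± 0.423, Hey1 at 2.21 ± 0.398 and Notch4 at 2.04 ± 0.0558. Day14 had another order, with mean FPKM of 31.3 ± 1.64 for Hes1, 24.4 ± 0.421 for Jag2, 23.2 ± 1.28 for Notch1 and 12.9 ± 1.42 for Jag1. Notch1 and Notch2 were thus at nearly the same level on Day0, while on Day14 Notch2 stood at 9.12 ± 0.334 FPKM and the Notch1 libraries were all above it.

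All further levels are CPM normalised by TMM, a scaling that corrects for library composition, and fold changes come from the quasi-likelihood F test of edgeR, with p-values adjusted by Benjamini-Hochberg for all 18107 genes. A member was called where the adjusted p was under 0.05. Against Day0, 2 members were higher and 5 lower on Day3, beside 31.8% and 34.8% of all genes tested. On Day5, 3 were higher and 4 lower (29% and 30.6% of all genes), and on Day7, 1 was higher and 4 lower (25.6% and 24.8%). On Day10, 4 were higher and 2 lower (23.5% and 26.9%), on Day12, 4 were higher and 1 lower (21.7% and 25.6%), and on Day14, 5 were higher and 2 lower (28.2% and 34.5%). With 10 members, no excess or deficit is read from these counts.

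The median log2 fold change of the members moved from -0.19 on Day3 to 0.24 on Day14, while that of all genes was -0.03 and -0.06 on these days. By the study's criteria, a log2 fold change above 1.5 or below the negative of it and an unadjusted p under 0.05, 0 members were called by edgeR on any day against Day0. The shares of all genes passing these criteria were 18.9% on Day3, 13.9% on Day5, 9.4% on Day7, 9.47% on Day10, 7.39% on Day12 and 14% on Day14. With the unadjusted p under 0.05 alone, 7, 7, 6, 6, 5 and 7 members passed on the 6 days in turn, and DESeq2 also gave 0 by the study's criteria. The count was 1 on Day3 without Day0 replicates 2 and 3 (Jag2) and 1 on Day14 without Day0 replicates 1 and 4 (Jag1 at 1.63). Against Day0 no member rose by more than 2.57-fold (Jag1 on Day14).

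**Figure D1:**
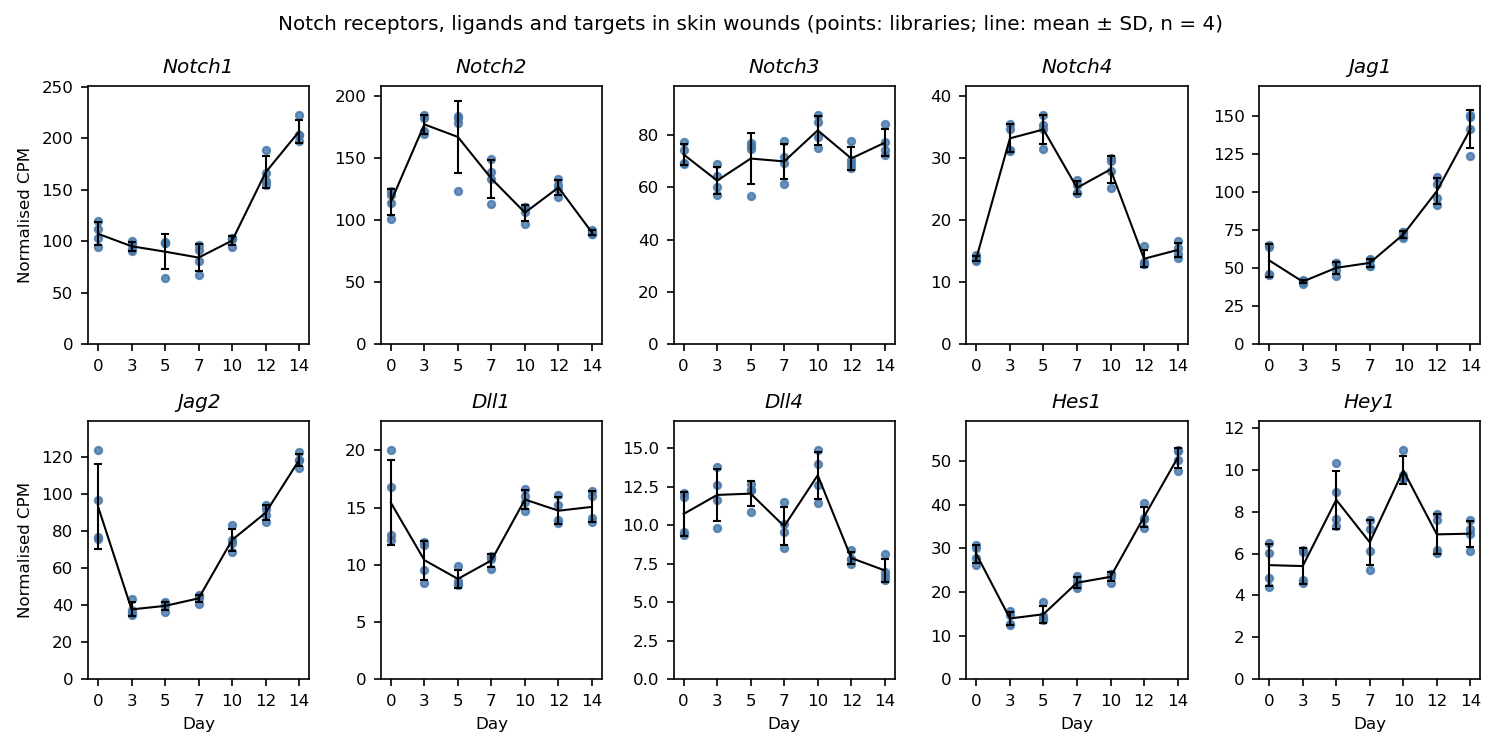
Normalised CPM (vertical axis, from 0) of each of the 10 genes by day (horizontal axis, days evenly spaced), with 1 point per library and the mean ± SD of 4 libraries as a line. Notch4 is high from Day3 to Day10 and back near 14 CPM on Day12, while Notch1, Jag1, Jag2 and Hes1 are highest on Day14.

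Notch1, the main Notch receptor of epidermal keratinocytes, was lower on Day7 and then climbed above its starting level. Its normalised CPM were 120.1, 103, 94.2 and 112 in the 4 Day0 libraries and 81.3, 96.5, 91.2 and 67.5 on Day7. On Day12 they were 158, 166, 155 and 189, and on Day14 they were 223, 203, 203 and 198. The Day12 and Day14 libraries all lay above those of Day0 and did not overlap with each other, whereas Day7 overlapped with Day0. Against Day0 the log2 fold change was -0.35 ± 0.11 (SE) on Day7 (edgeR adjusted p = 0.00896), 0.64 ± 0.11 on Day12 (2.29e-05) and 0.95 ± 0.11 on Day14 (2.11e-08). That is a 1.93-fold rise by Day14 (n = 4 each). Without Day0 replicates 1 and 4 the Day7 call was lost (-0.23, adjusted p = 0.119).

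On Day3 and Day10 Notch1 did not pass the test (-0.17 and -0.09). On Day5 it stood at -0.25 with an edgeR adjusted p of 0.0464, a call that was lost without any of Day0 replicates 1, 2 and 4 or Day5 replicate 4 (adjusted p 0.0506 to 0.257). With the libraries of the compared days alone, the Day5 call was lost (edgeR adjusted p = 0.129) and Day3 was called (-0.20, 0.04). Day5 replicate 4 alone held 64.0 CPM, and the other 3 Day5 libraries held 97.8, 98.7 and 98.9. Without this library the Day5 value was -0.12, and without Day0 replicates 1 and 4 it was -0.13 and not called.

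Notch2, a receptor with a broad expression that includes myeloid cells and fibroblasts, was highest on Day3 and Day5 and lowest on Day14. Its normalised CPM were 124, 120.2, 113 and 101 on Day0 and rose to 182, 185, 169 and 172 on Day3. Day5 held 182, 184, 178 and, in replicate 4, 123. Day10 held 106, 96.5, 111 and 110. Day12 held 128, 119, 125 and 133, above Day10 by 0.25 ± 0.09 on the log2 scale (edgeR adjusted p = 0.0321). By Day14 the values were 92.2, 90.1, 88.3 and 88.6, below every Day0 library. The log2 fold change was 0.63 ± 0.09 on Day3 (edgeR adjusted p = 1.31e-06), 0.54 ± 0.09 on Day5 (1.4e-05) and -0.35 ± 0.09 on Day14 (0.00193). The Day14 value was -0.23 and still called without Day0 replicate 1, and was not called by limma on log2(FPKM + 1), at -0.20 (adjusted p = 0.0599), nor without Day0 replicates 2 and 3, at -0.24 (0.0607). On Day7 it was 0.22 with an adjusted p of 0.0527, which passed the threshold without Day0 replicate 1 or Day7 replicate 4 (0.26 and 0.29) and with the replicate number as a block (adjusted p = 0.0399). Day12, at 0.14, was not called. It was called higher without composition normalization (0.284) and by limma on log2(FPKM + 1) and log2(FPKM + 0.1) (0.264 and 0.285). Macrophage markers (5 genes) summed to between 598 and 972 CPM on Day0, between 1781 and 1869 on Day3 and between 210.8 and 237 on Day14. Of these, 5 of 5 were called higher on Day3 and 5 of 5 lower on Day14. The 5 fibroblast markers had 1 higher and 4 lower on Day3, when Notch2 was higher, and 5 of 5 lower on Day14, and the 4 neutrophil markers had 4 higher on Day3 and 3 lower on Day14. The part of these cells in the Notch2 values was not tested.

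Notch3, the receptor of vascular smooth muscle cells and pericytes, was the steadiest of the 4. Its libraries held 77.3, 69.4, 68.9 and 74.4 CPM on Day0, 68.8, 64.2, 60.2 and 56.9 on Day3 and 79.3, 75.1, 87.7 and 84.8 on Day10. The ranges of each pair of neighbouring days in the order of levels overlapped. The only call against Day0 was on Day3, at -0.21 ± 0.08 (edgeR adjusted p = 0.0288), and it was lost without Day0 replicate 1 or 4 or Day3 replicate 2, 3 or 4 (adjusted p 0.0947 to 0.243) and without Day0 replicates 1 and 4 together (-0.14). In the latter fit Day10, at 0.24, was called (0.0411). Day10 was also called without composition normalization (0.227), with the libraries of Day0 and Day10 alone (0.187) and by limma on log2(FPKM + 1) and log2(FPKM + 0.1) (0.204 and 0.224). Day14 was called without composition normalization (0.213) and by these limma fits (0.192 and 0.211). The joint test over the 6 wound days was still past the threshold (edgeR adjusted p = 0.00387).

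Notch4, the receptor of endothelial cells, had the largest early rise of the members. It held 14.3, 13.4, 13.6 and 14.1 CPM on Day0 and 31.2, 34.7, 31.3 and 35.5 on Day3. Day5 gave 35.3, 37.0, 34.7 and 31.4, Day7 gave 24.3, 24.4, 26.4 and 25.7, and Day10 gave 30.0, 27.9, 29.5 and 25.2. On Day12 the libraries were back at 13.0, 13.3, 13.0 and 15.8, and on Day14 at 13.9, 15.5, 16.7 and 14.6. Every library from Day3 to Day10 was above every library of Day0, Day12 and Day14.

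The log2 fold changes of Notch4 were 1.26 ± 0.07 on Day3 (edgeR adjusted p = 2.37e-14), 1.32 ± 0.07 on Day5 (1.58e-14), 0.86 ± 0.07 on Day7 (1.59e-10) and 1.02 ± 0.07 on Day10 (7.82e-12). The largest, on Day5, was 2.49-fold. On Day12 the difference was -0.01 (95% interval -0.16 to 0.15) and on Day14 it was 0.13 (-0.02 to 0.29), the latter called without Day0 replicate 1 or 4 (0.23 and 0.22). Day14 was also called without composition normalization (0.26) and by limma on log2(FPKM + 1) and log2(FPKM + 0.1) (0.18 and 0.24). Day3 and Day5 did not differ beyond their spread, nor did Day10 and Day7 (edgeR adjusted p = 0.594 and 0.0944), while Day3 was above Day10 (0.00661).

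Because whole tissue was sequenced, more endothelial cells and more Notch4 RNA per endothelial cell cannot be told apart, and likewise for the other members and their cell types. The 10 endothelial markers summed to between 639 and 837 CPM on Day0, between 1075 and 1176 on Day3 and between 531 and 616 on Day14. On Day3, 7 of them were higher and 2 lower, and on Day14, 0 were higher and 6 lower. Divided by this sum in the same library, Notch4 was above its Day0 mean by 0.63 on the log2 scale on Day3 (range 0.53 to 0.68), by 0.66 on Day10, by 0.30 on Day12 (0.21 to 0.43) and by 0.53 on Day14 (0.47 to 0.64). The Day0 libraries themselves ranged from -0.22 to 0.23 and overlapped with those of Day12. The part of the endothelial markers in the Notch4 values was not tested.

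**Figure D2:**
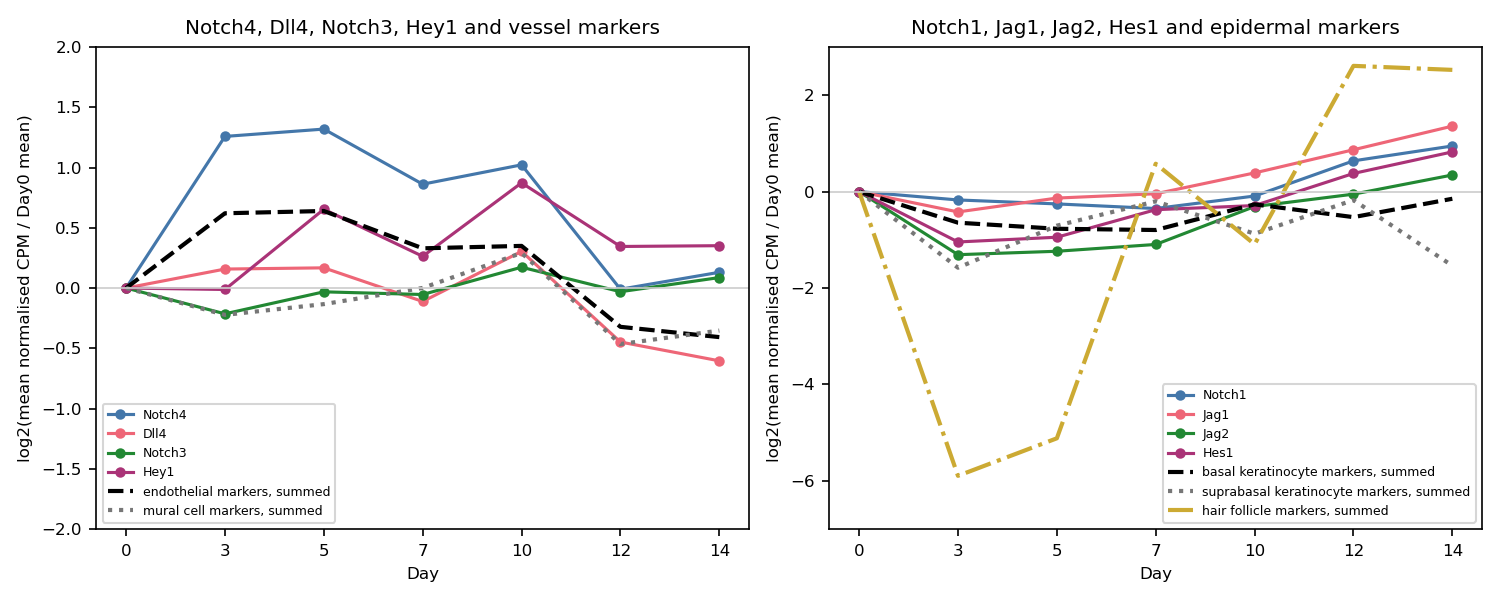
Mean normalised CPM of 4 libraries relative to the Day0 mean (log2, vertical axis) by day (horizontal axis, days evenly spaced), for members in solid lines and for summed cell type markers in broken lines. Notch4 lies above the endothelial markers on every wound day. Hair follicle markers lie below Day0 on Day3, Day5 and Day10 and above it on Day7, Day12 and Day14.

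The 3 longest receptor genes shared a feature in Day5 replicate 4. Relative to the Day5 mean, this library was lower by log2 values of -0.47 for Notch1 (9489 bases), -0.42 for Notch2 (10506 bases) and -0.32 for Notch3 (8358 bases). Hes1 (1731 bases) and Hey1 (2408 bases), the shortest of the members, were at 0.26 and 0.28 in the same library. Over all 14684 genes with a mean CPM of at least 1, its median deviation was 0.18 in the shortest of 5 equal bins of genes by length and -0.21 in the longest. Jag1, the longest member at 11717 bases, was at -0.15, and Dll4, at 3451 bases, was at -0.14. Without Day5 replicate 4 the Day5 value of Notch3 was 0.06 in place of -0.03, and that of Notch2 was 0.66.

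Day7 replicate 4 had a smaller trend in the same direction, with a median deviation of 0.07 in the shortest bin and -0.08 in the longest. In it Notch1 was at -0.30, Notch2 at -0.23 and Notch3 at -0.18 relative to the Day7 mean, and Dll4 (3451 bases) at -0.21. Without this library the Day7 value of Notch1 was -0.26 and still called, and that of Notch2 was 0.29 and called. The part of length in these receptor values was not tested.

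**Figure D3:**
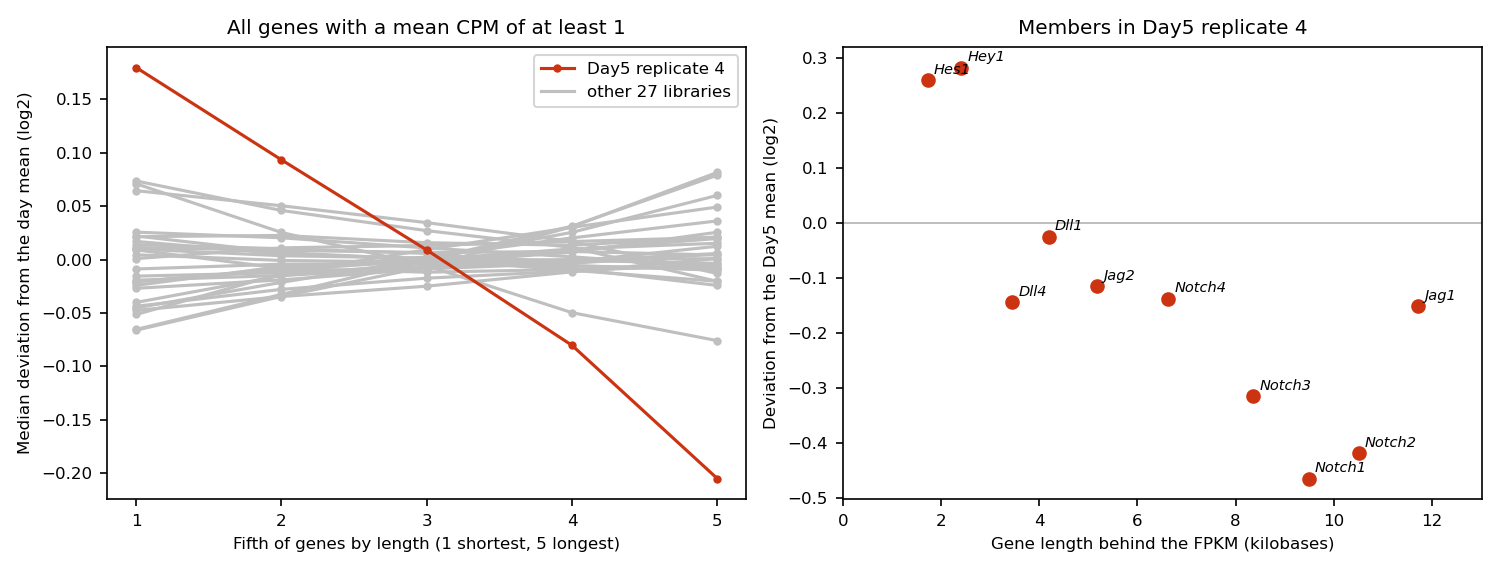
Left, median deviation of a library from its day mean (log2, vertical axis) for 5 equal bins of genes by length (horizontal axis), with Day5 replicate 4 in red and the other libraries in grey; right, the deviation of each member in Day5 replicate 4 against its length in kilobases. The red line runs from 0.18 in the shortest to -0.21 in the longest bin, and Notch1, Notch2 and Notch3 are the lowest of the members.

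Among the ligands, Jag1, which is made by keratinocytes, follicle cells and vessels, was lower on Day3 and higher from Day10 on against all 4 Day0 libraries. Its CPM were 65.5, 45.9, 45.5 and 63.7 on Day0, 42.3, 41.2, 39.8 and 41.4 on Day3 and 51.2, 55.9, 51.3 and 55.5 on Day7. They reached 73.7, 69.8, 74.1 and 70.9 on Day10, 91.5, 105, 95.8 and 110.0 on Day12 and 151, 149.6, 123 and 142 on Day14. The libraries of Day10, Day12 and Day14 did not overlap with each other or with Day0. The log2 fold change was -0.42 ± 0.09 on Day3 (edgeR adjusted p = 0.000304), 0.39 ± 0.09 on Day10 (0.000997), 0.87 ± 0.09 on Day12 (1.63e-08) and 1.36 ± 0.09 on Day14 (1.15e-12). Without Day0 replicates 1 and 4 the Day3 call was lost (-0.15, adjusted p = 0.102), and without replicates 2 and 3 the Day10 call was lost (0.16, 0.107). Day5 and Day7, at -0.13 and -0.04, did not pass, although Day5 did without Day0 replicate 2 or 3 (-0.22 each) or both (-0.35). Day7 was called in opposite directions, higher without Day0 replicates 1 and 4 (0.23, adjusted p = 0.0174) and lower without 2 and 3 (-0.27, 0.00567).

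Jag2, a ligand of basal keratinocytes and follicles, fell more deeply and recovered later. It held 96.8, 75.5, 76.5 and 124 CPM on Day0, then 43.0, 37.3, 35.7 and 34.6 on Day3, 41.5, 39.3, 41.0 and 36.5 on Day5 and 40.6, 45.2, 44.8 and 43.9 on Day7. Day10 gave 73.5, 68.8, 75.2 and 83.4, Day12 gave 88.6, 91.8, 85.0 and 94.2, and Day14 gave 118, 119, 122 and 114. From Day3 to Day7 every library was below every Day0 library, and from Day10 on the ranges overlapped with the wide range of Day0. On the log2 scale Jag2 stood at -1.31 ± 0.10 on Day3 (edgeR adjusted p = 1.2e-11), -1.24 ± 0.10 on Day5 and -1.10 ± 0.10 on Day7, that is to 0.404, 0.424 and 0.468 of the Day0 level. Day14 was higher than Day0 by 0.35 ± 0.10 (0.00439), and by 0.59 without Day0 replicate 4, the highest of that group, but the call was lost without Day0 replicates 2 and 3 (0.18, adjusted p = 0.0818). The Day10 call, at -0.31 (0.0131), was lost without Day0 replicate 4 (-0.14), Day0 replicates 1 and 4 (-0.01) or Day10 replicate 2 (-0.27). It was also lost with the libraries of Day0 and Day10 alone (-0.29, edgeR adjusted p = 0.133). Limma on log2(FPKM + 1) and log2(FPKM + 0.1) did not call it either (-0.22 and -0.23). Day12 was not called against all Day0 libraries, but was called higher without Day0 replicates 1 and 4 (0.24) and lower without 2 and 3 (-0.28).

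Dll1, a Delta-like ligand found on scattered epidermal and other cells, was lower than Day0 from Day3 to Day7 and was not called afterwards. Its CPM were 20.1, 12.2, 12.6 and 16.8 on Day0, 8.21, 8.34, 9.90 and 8.59 on Day5 and 15.5, 14.7, 16.6 and 16.0 on Day10. Each Day3, Day5 and Day7 library was below every Day0 library. Its difference from Day0 on the log2 scale was -0.57 ± 0.13 on Day3 (edgeR adjusted p = 0.000273), -0.82 ± 0.13 on Day5 (3.13e-06) and -0.57 ± 0.13 on Day7 (0.000399). Without Day0 replicates 1 and 4 the Day3 and Day7 calls were lost (-0.25 and -0.26, adjusted p = 0.0562 and 0.0671). On Day10, Day12 and Day14 the differences were 0.03, -0.07 and -0.03, the second with a 95% interval from -0.32 to 0.19, and the sign of these 3 small differences changed with the scaling or the libraries used. Without Day0 replicates 1 and 4 they were 0.34, 0.25 and 0.28, the first and last called, and without 2 and 3 they were -0.23, -0.31 and -0.21, the second called.

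Dll4, the ligand of endothelial tip cells and arteries, did not pass the test from Day3 to Day7 and fell late. It held 9.40, 9.58, 11.8 and 12.1 CPM on Day0 and 9.82, 13.8, 12.6 and 11.6 on Day3, and these ranges overlapped. On Day12 its values were 8.37, 7.81, 7.82 and 7.50, and on Day14 they were 6.46, 6.70, 8.11 and 6.99, below every Day0 library. Against Day0 it stood at -0.45 ± 0.11 on the log2 scale on Day12 (edgeR adjusted p = 0.002) and -0.60 ± 0.11 on Day14 (4.89e-05), or 0.658 of the Day0 level. On Day10 it was 0.30 ± 0.11 (0.0261), a call lost without Day0 replicate 1 or 2 or Day10 replicate 1 or 3 (0.24 to 0.28) and without Day0 replicates 2 and 3 (0.30, adjusted p = 0.0651). With the libraries of Day0 and Day10 alone this call was lost too (0.32, edgeR adjusted p = 0.0682). Day3 stood at 0.16 (0.221) and was called without Day0 replicate 4 or Day3 replicate 1 (0.27 and 0.29).

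Relative to the summed endothelial markers in the same library, Dll4 was lower than on Day0 by a log2 value of -0.47 on both Day3 and Day5, while Notch4 was higher by 0.63 and 0.67. On Day14 these values were -0.19 for Dll4 and 0.53 for Notch4. The Day0 libraries ranged from -0.33 to 0.39 for Dll4, so that its Day3 range (-0.66 to -0.28) overlapped with them and its Day14 range (-0.24 to -0.13) lay within them, while all Day5 libraries (-0.49 to -0.44) were below. The 8 mural cell markers summed to between 830 and 1057 CPM on Day0, between 759 and 791 on Day3 and between 681 and 747 on Day14, with 4 of 8 higher and 3 lower on Day3. Of the endothelial markers none was at 0 in a whole day's libraries.

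Hes1, the best known Notch target and a transcriptional repressor that other pathways can also induce, was low on the early days and high on the last. Its normalised CPM were 30.8, 26.3, 27.7 and 30.0 on Day0 and 14.8, 12.5, 15.7 and 12.7 on Day3. They were 22.4, 20.8, 21.5 and 23.7 on Day7, 37.1, 34.8, 36.8 and 40.4 on Day12 and 52.3, 52.7, 50.3 and 47.8 on Day14. In order of level, Day14 was above Day12, Day12 above Day0 and Day0 above Day10, each without overlap of libraries, as was Day7 above Day5. The log2 fold change was -1.04 ± 0.08 on Day3 (edgeR adjusted p = 8.08e-12), -0.95 ± 0.08 on Day5 (7.94e-11), -0.37 ± 0.08 on Day7 (0.000294) and -0.29 ± 0.08 on Day10 (0.00353), the last lost without Day0 replicates 1 and 4 (-0.20, adjusted p = 0.0709). It turned to 0.38 ± 0.08 on Day12 (0.000281) and 0.82 ± 0.08 on Day14 (6.66e-10). Hes1 thus moved from 0.485 of its Day0 level on Day3 to 1.77-fold above it on Day14.

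Hey1, a target and repressor of the vascular branch of the pathway, did not share this course. Its CPM were 6.05, 4.42, 4.82 and 6.51 on Day0, 4.62, 4.73, 6.18 and 6.10 on Day3 and 7.66, 8.97, 7.32 and 10.3 on Day5. On Day10 they were 9.75, 11.0, 9.61 and 9.58. Day3 overlapped with Day0, and all libraries of Day5 and Day10 lay above it. The log2 fold change was -0.01 on Day3, 0.65 ± 0.14 on Day5 (edgeR adjusted p = 0.000302) and 0.87 ± 0.14 on Day10 (1.06e-05).

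On Day12 and Day14 Hey1 was higher by 0.35 ± 0.14 each (edgeR adjusted p = 0.05, just under the threshold, and 0.0355). The Day12 call was lost without Day0 replicate 2 or 3 or Day12 replicate 1 or 3 (0.26 to 0.30), and with the replicate number as a block (0.35, adjusted p = 0.052). In edgeR it was also lost with DESeq2's size factors (adjusted p = 0.053), with no filter (0.0636) and with the compared days alone (0.103). The Day14 call was lost without Day0 replicate 2 or 3 or Day14 replicate 1, 2 or 3 (0.31 to 0.36). Without Day0 replicates 2 and 3 they stood at 0.16 and 0.22 and neither was called. Day7, at 0.26, was called without Day7 replicate 2 (0.36) and without Day0 replicates 1 and 4 (0.50).

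**Figure D4:**
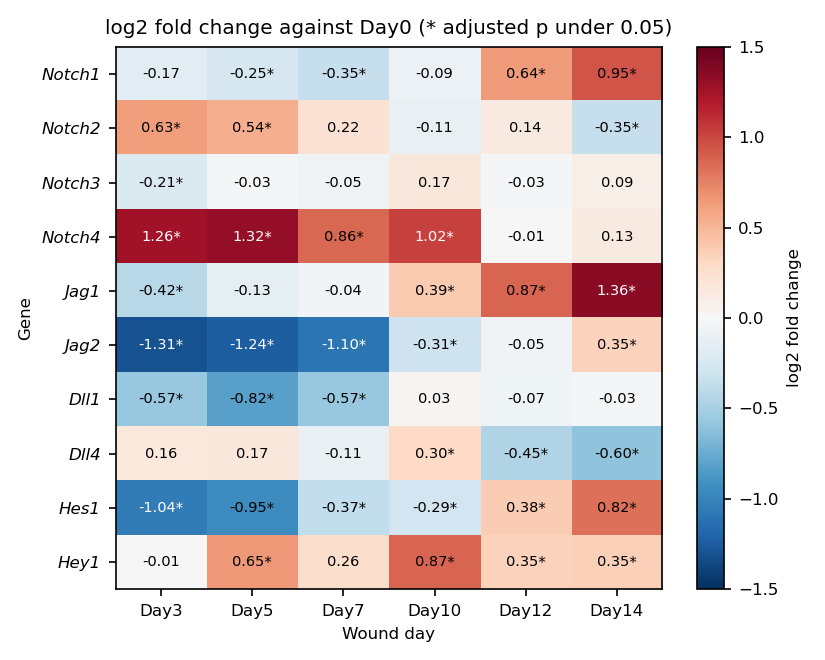
log2 fold change against Day0 (colour and number) of the 10 genes (vertical axis) on 6 wound days (horizontal axis), with a star where the edgeR adjusted p was under 0.05. Notch4 and Notch2 are red on Day3 and Day5, where Jag2, Dll1 and Hes1 are blue, and Notch1, Jag1 and Hes1 are red on Day12 and Day14.

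The markers of epithelial cells moved over the same days. Basal keratinocyte markers (5 genes) summed to between 3750 and 7937 CPM on Day0, between 3356 and 4200 on Day3 and between 4659 and 5835 on Day14, with 4 of 5 called lower on Day3. The 5 suprabasal markers summed to between 1116 and 1527 CPM on Day3 and between 1148 and 1555 on Day14, and 5 of 5 were lower than on Day0 on both days. Hair follicle markers (9 genes) went from between 236 and 1452 CPM on Day0 to between 8.31 and 14.1 on Day3, and then to between 3164 and 4196 on Day14, with 9 of 9 lower and 9 of 9 higher. In between they did not rise steadily. They summed to between 794 and 1081 CPM on Day7 (2 higher, 1 lower) and between 277 and 322 on Day10 (3 higher, 4 lower), both within the Day0 range. The 4 wound edge keratinocyte markers summed to between 468 and 709 CPM on Day0, between 2454 and 2984 on Day3 and between 1486 and 1792 on Day14, with 3 of 4 higher on Day3 and 2 of 4 on Day14. The part of these lists in the values of Notch1, Jag1, Jag2 and Hes1 was not tested.

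Ratios of these members to a marker sum in the same library depended on the list. On Day3, relative to the Day0 mean and on the log2 scale, Hes1 was at -0.47 per basal marker (range -0.62 to -0.21, with Day0 libraries from -0.52 to 0.41), at 0.54 per suprabasal marker, at 4.55 per hair follicle marker and at -3.36 per wound edge keratinocyte marker. Jag2 was at -0.71, 0.31, 4.31 and -3.59 by these 4 lists, with Day0 libraries from -0.28 to 0.22 per basal marker. On Day14, Notch1, Jag1, Jag2 and Hes1 were at 1.02, 1.45, 0.45 and 0.90 per basal marker and at 2.50, 2.92, 1.92 and 2.37 per suprabasal marker. Per hair follicle marker they were at -1.90, -1.48, -2.48 and -2.03, and per wound edge keratinocyte marker at -0.66, -0.23, -1.23 and -0.78. The sign of these ratios therefore differed between lists, and no direction per epithelial cell is read from them.

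The fold changes between wound days use no Day0 library, although the Day0 spread enters the estimate of error that all days share. From Day3 to Day7, 2 members rose (Jag1 by 0.38 ± 0.09 and Hes1 by 0.67 ± 0.08) and 2 fell (Notch2 at -0.41 ± 0.09 and Notch4 at -0.40 ± 0.07), beside 25.8% of all genes higher and 24.2% lower. Dll4 was at -0.27 with an edgeR adjusted p of 0.0501 and passed without Day3 replicate 1, 3 or 4 or Day7 replicate 1 (-0.29 to -0.40), and Hey1, at 0.28, passed without Day7 replicate 2 (0.37). Dll4 also passed in DESeq2 (-0.295, DESeq2 adjusted p = 0.0239) and in edgeR with DESeq2's size factors (-0.295, edgeR adjusted p = 0.0322). With the libraries of Day3 and Day7 alone, Notch3 (0.17) and Jag2 (0.23) were called beside Jag1, Hes1, Notch2 and Notch4, giving 6 calls. Notch3 and Jag2 were also called without composition normalization (0.22 and 0.27) and by limma on log2(FPKM + 1) (0.19 and 0.24) and log2(FPKM + 0.1) (0.22 and 0.27). By the study's criteria 0 members were called by edgeR and DESeq2, beside 9.02% of all genes, and 5 members had an unadjusted p under 0.05.

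From Day7 to Day14, 5 members rose and 3 fell, beside 27.9% and 33.7% of all genes. Jag2 rose by 1.44 ± 0.10 (edgeR adjusted p = 2.85e-12), Jag1 by 1.40 ± 0.09 (6.25e-13), Notch1 by 1.30 ± 0.11 (7.21e-11), Hes1 by 1.20 ± 0.08 (5.31e-13) and Dll1 by 0.54 ± 0.13 (0.000535). Notch4 fell by 0.73 ± 0.07 (2.13e-09), Notch2 by 0.57 ± 0.09 (7.31e-06) and Dll4 by 0.49 ± 0.11 (0.000546). Notch3 and Hey1, at 0.14 and 0.09, did not pass, and Notch3 did without Day7 replicate 1 or 2 (0.21 and 0.24) and with the libraries of Day7 and Day14 alone (0.21). Notch3 also passed without composition normalization (0.26) and by limma on log2(FPKM + 1) and log2(FPKM + 0.1) (0.24 and 0.26). By the study's criteria edgeR and DESeq2 called 0 members, beside 11.8% of all genes, and 8 had an unadjusted p under 0.05. Without Day7 replicate 2 or 4 the count by these criteria was 1 or 2.

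All 10 members varied among the 6 wound days in the joint edgeR test, as did 85.1% of all genes tested. Adjusted p ranged from 5.93e-18 for Hes1 to 0.00387 for Notch3. Such a test was therefore passed by most genes of the table.

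The genes whose course was most like that of a member were found by Pearson's r of log2 CPM over the 28 libraries, among 14683 other genes with a mean CPM of at least 1. The points of such an r share their library and its composition, and 7 days of 4 libraries are not 28 independent conditions. For Notch4 the most alike were Cd93 (r = 0.98), Sema7a (0.97) and Scarf1 (0.97), and Cd93 is an endothelial surface protein. For Hes1 they were Id4 (0.98), an inhibitor of helix-loop-helix factors, Barx2 (0.98) and Mt4 (0.98). For Jag2 they were Acad9 (0.99), Agap3 (0.98) and Stard10 (0.98), and for Notch1 they were Slc44a1 (0.98), Nup210 (0.97) and Plxna2 (0.96).

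Jag1 was most like Ptgds, Bdh1 and Ptprk (0.97 each), and Notch2 most like Plxnb2 (0.96), Iqgap1 (0.95) and Dnajc13 (0.95). The likeness was lower for Dll1, at 0.91 with Moxd1, for Dll4, at 0.87 with Tesk1, for Notch3, at 0.84 with Pitpnm2, and for Hey1, at 0.82 with Tnni1.

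The rest of the pathway was read from 56 other genes in 8 groups, of which 52 passed the filter on low counts. Dll3, Hes3, Hes5 and Hes7 did not pass. Calls of the others came from the fit of all 28 libraries. They were not refitted without either pair of Day0 libraries or under any other alternative. On Day3, 17 were called higher and 21 lower, beside 31.8% and 34.8% of all genes, on Day7, 12 and 16 (25.6% and 24.8%), and on Day14, 13 and 18 (28.2% and 34.5%). The counts over the 52 genes were near these shares and are not read as a result about the pathway. The median log2 fold change of the 52 was -0.09, -0.01 and -0.03 on these days, beside -0.03, 0.00 and -0.06 for all genes.

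Receptor processing, the proteases that cut Notch, was the largest group. Of its 10 genes, 6 were higher and 1 lower on Day3 (31.8% and 34.8% of all genes), with a median of 0.35, and 0 were higher and 4 lower on Day14 (28.2% and 34.5%). Furin, the convertase that makes the first cut of the receptor, held between 83.3 and 94.9 CPM on Day0 and between 179 and 188 on Day3, a log2 fold change of 1.07 ± 0.07 (edgeR adjusted p = 2.6e-13). The sheddase genes Adam17 and Adam10 were at 0.87 ± 0.07 and 0.45 ± 0.06 on Day3.

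Receptor glycosylation (5 genes) had 2 higher and 1 lower on Day3 (31.8% and 34.8% of all genes) and 3 higher and 2 lower on Day14 (28.2% and 34.5%). The Fringe enzymes, which tune a receptor's choice between Delta-like and Jagged ligands, did not move as one. Lfng held between 23.2 and 34.3 CPM on Day0, between 46.5 and 51.6 on Day3 and between 40.3 and 44.9 on Day14, with log2 fold changes of 0.80 ± 0.09 and 0.59 ± 0.09 (edgeR adjusted p = 6.44e-09 and 1.55e-06). Mfng was at -0.99 ± 0.12 on Day3.

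Ligand endocytosis (4 genes) and other ligands (5 listed, 4 tested) held some of the larger changes. Neurl1a, a ubiquitin ligase that acts on Delta-like ligands, went from between 21.3 and 42.1 CPM on Day0 to between 5.11 and 6.89 on Day7 and between 5.78 and 6.75 on Day14 (log2 fold changes -2.35 ± 0.18 and -2.27 ± 0.17, edgeR adjusted p = 7.99e-12 and 8.88e-12). Dlk2 was at -1.93 ± 0.20 on Day7. Dlk1, a non-canonical ligand and preadipocyte marker, rose from between 0.779 and 3.83 CPM on Day0 to between 12.2 and 14.9 on Day7, a log2 fold change of 3.02 ± 0.27 (edgeR adjusted p = 2.59e-10), and was at 2.79 ± 0.27 on Day14. Its highest libraries were those of Day10, between 42.7 and 48.5 CPM.

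The nuclear complex (7 genes) had 3 higher and 4 lower on Day3 (31.8% and 34.8% of all genes) and 0 higher and 4 lower on Day14 (28.2% and 34.5%). Rbpj, the DNA-binding partner of all 4 receptors, held between 81.7 and 124 CPM on Day0, between 146 and 158 on Day3 and between 51.0 and 55.5 on Day14. Its log2 fold change was 0.52 ± 0.08 on Day3 (edgeR adjusted p = 3.37e-06), -0.01 on Day7 and -0.97 ± 0.08 on Day14 (9.86e-11). Rbpj was thus higher than on Day0 on Day3, when Hes1 was lower, and the reverse held on Day14. Of the 8 corepressors, 2 were higher and 3 lower on Day3, and 2 were higher and 2 lower on Day14, beside the same shares of all genes.

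Among 9 negative regulators, 2 were higher and 6 lower on Day3 (31.8% and 34.8% of all genes), and 3 were higher and 2 lower on Day14 (28.2% and 34.5%). Nrarp, a feedback inhibitor that Notch itself induces, moved in the same directions as Hes1 on these days, with between 50.6 and 59.7 CPM on Day0, between 34.8 and 41.0 on Day3 and between 68.8 and 78.1 on Day14. Its log2 fold change was -0.53 ± 0.07 on Day3 (edgeR adjusted p = 1.92e-07), -0.38 ± 0.07 on Day7 and 0.39 ± 0.07 on Day14 (1.77e-05). Dtx1, a ubiquitin ligase that binds the receptor, was at -2.46 ± 0.25 on Day3 and -1.70 ± 0.24 on Day14.

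Of the 8 other targets 5 were tested. On Day3, 1 of them was higher and 1 lower (31.8% and 34.8% of all genes), and on Day7, 1 was higher and 0 lower (25.6% and 24.8%). On Day14, 4 were higher and 0 lower, beside 28.2% and 34.5% of all genes. Heyl, a target of Notch3 in mural cells, rose without a dip, from between 9.70 and 14.5 CPM on Day0 to between 20.5 and 24.9 on Day7 and between 30.0 and 33.6 on Day14 (2.02-fold and 2.82-fold above Day0, edgeR adjusted p = 5.83e-10 and 1.75e-13). Bhlhe40, also a hypoxia and stress target, was at 0.92 ± 0.11 on Day3.

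Hes2 was nearly lost early and abundant late. It had between 16 and 52 counts per library on Day0, at most 1 on Day3 and 2 on Day5, and between 372 and 396 on Day14. Taking 3 counts per library as the floor, its level on Day3 was at least 8.83-fold lower than on Day0, and on Day5 at least 9.11-fold lower. On Day14 its log2 fold change was 3.67 ± 0.29 (edgeR adjusted p = 1.57e-11). Hes5 was below the filter, with 0 or 1 count in each Day0 library and between 5 and 16 on Day14, which is at least 3.29-fold higher against the same floor. These bounds cover counting error only.

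**Figure D5:**
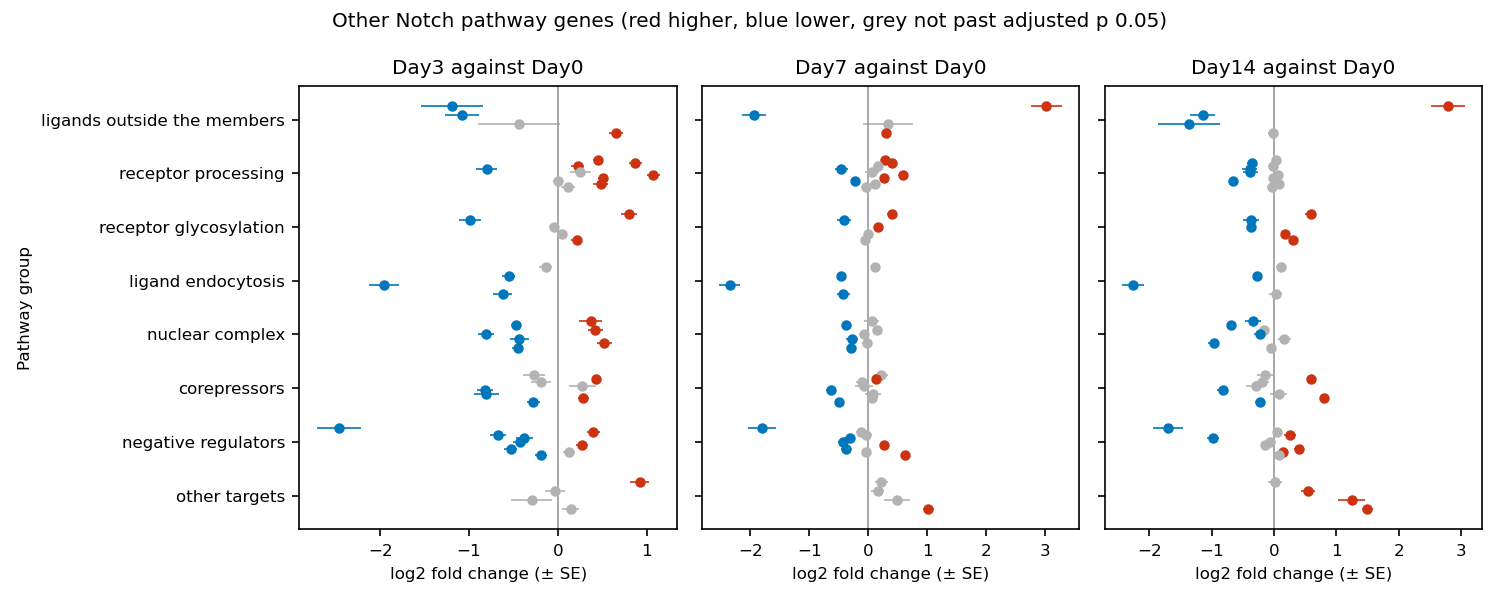
log2 fold change ± SE (horizontal axis) of the other pathway genes in 8 groups (vertical axis) on Day3, Day7 and Day14, with 1 point per gene, red where called higher, blue where called lower and grey otherwise. Hes2 is left out of the plot because it had at most 1 count per library on Day3. Receptor processing genes lie mostly right of 0 on Day3, and on Day14, 4 of 10 are called lower.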

How the data were processed

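RNA had been extracted with TRIzol and libraries prepared using the VAHTS Universal V6 kit. The files that the authors deposited hold raw counts per gene symbol for 28 libraries and FPKM values, which equal count over gene length and library total (largest relative spread 1.6e-07). The submitters' processing notes name fastp, R 3.2.0 and build mm10. The aligner, counting tool, annotation and strandedness are not given in the sources used here, so reads of overlapping or antisense genes cannot be told apart.

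The count model was edgeR 4.0.16 under R 4.3.3, a two-sided quasi-likelihood test after TMM scaling and filterByExpr by day, with 1 fit for all 28 libraries and 21 residual degrees of freedom, and Benjamini-Hochberg adjustment over 18107 genes. The scripts were tested on simulated data. DESeq2 1.42.0 and limma 3.58.1 on log2(FPKM + 1) and log2(FPKM + 0.1), other normalizations, no filter, the replicate number as a block, the compared days alone and each library left out were the alternatives, with each pair of like Day0 libraries left out as an alternative added after the data were seen. Intervals are 95%. Named pathway genes were Rbpj, Lfng, Nrarp, Heyl and Hes5 and the 2 highest and 2 lowest called on Day3, Day7 and Day14 with a mean CPM of at least 1. Adam10, Adam17 and Mfng were named after their values were seen. The members and lists were chosen with earlier results of these data known. Promoter windows came from RefSeq. Exact permutation tests of 4 against 4 libraries, whose smallest p is 0.0286, were used only as a check of overlap.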

Additional observations from a re-analysis of the deposited data

Results flagged for a closer look

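Of 70 groups of 4 libraries (10 members on 7 days), 5 held a library far from the other 3 by Dixon's criterion, and chance alone gives about 1 in 20 groups, or 3.5 here. Day5 replicate 4 was low for 3 receptors, with normalised CPM of 64.03 for Notch1 (others 97.8 to 98.9), 123.0 for Notch2 (178 to 184) and 56.55 for Notch3 (74.8 to 76.8), and this was the library with a length trend over all genes. Notch4 was high in Day12 replicate 4, at 15.81 CPM (others 13.0 to 13.3), and Hey1 in Day10 replicate 2, at 10.98 CPM (9.58 to 9.75).

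For 6 members the change against Day0 was called in opposite directions on different days, and the difference between these days also passed the edgeR test. Between Day14 and Day7 it was 1.297 on the log2 scale for Notch1. Between Day14 and Day3 it was 1.7796 for Jag1, 1.6526 for Jag2 and 1.8679 for Hes1, with Day14 higher. For Notch2, Day3 was above Day14 by 0.9776, and for Dll4, Day10 was above Day14 by 0.9077. These differences between wound days use no Day0 library. The calls against Day0 of Notch1 on Day7 and Jag1 on Day3 were lost without Day0 replicates 1 and 4, and those of Notch2 and Jag2 on Day14 and Dll4 on Day10 without replicates 2 and 3.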

How the results depend on the processing

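Of 49 calls of members in the 8 comparisons, 35 were kept under all alternatives, and 0 called values changed sign. The 14 lost under some alternative were Notch3, Jag1 and Dll1 on Day3, Notch1 on Day5, Notch1 and Dll1 on Day7, Jag1, Jag2, Dll4 and Hes1 on Day10, Hey1 on Day12, and Notch2 (also by limma, adjusted p 0.0599 and 0.0619), Jag2 and Hey1 on Day14. Dropping composition normalization moved the median of all genes by 0.14 on Day12, 0.13 on Day14 and 0.12 from Day7 to Day14, and limma on log2(FPKM + 0.1) by 0.14, 0.12 and 0.11. Of 31 differences not called, 5 kept their sign and stayed uncalled throughout. The signs that turned were all of differences that had not been called. Leaving out Day0 replicates 1 and 4, chosen after seeing the data, turned Hey1 on Day3 to 0.227, Notch3 to 0.039, 0.016 and 0.04 on Day5, Day7 and Day12, Jag1 to 0.139 on Day5 and 0.229 on Day7, Notch1 to 0.031 on Day10, Notch4 to 0.03 and Jag2 to 0.244 on Day12, and Dll1 to 0.25 on Day12 and 0.282 on Day14. Of these, Jag1 on Day7, Jag2 on Day12 and Dll1 on Day14 were then called. Leaving out Day0 replicates 2 and 3 turned Dll1 on Day10 to -0.231. Members called on Day3 numbered 4 in the former fit, and on Day14 they numbered 4 in the latter. By the study's criteria they numbered 1 on Day14 and 1 on Day3. With DESeq2's size factors, and in DESeq2 itself, Hey1 on Day3 and Dll1 on Day14 became 0.001, and with no filter the latter was 0.005. Without composition normalization the Day12 values were 0.114 for Notch3, 0.135 for Notch4, 0.092 for Jag2 and 0.079 for Dll1, and Dll1 was 0.096 on Day14 and 0.056 from Day3 to Day7. With limma on log2(FPKM + 1) these 6 values were 0.102, 0.089, 0.113, 0.078, 0.09 and 0.046, and on log2(FPKM + 0.1) they were 0.112, 0.124, 0.12, 0.102, 0.115 and 0.066. In edgeR on the compared days alone, Dll1 was 0.037 on Day14 and 0.011 from Day3 to Day7. By the study's criteria, members from Day7 to Day14 numbered 2 without composition normalization, 1 on the compared days alone and 2 with limma on log2(FPKM + 0.1). With each library left out they numbered 0 to 2, and 0 to 1 on Day14 against Day0. The cause of these shifts was not tested beyond the scaling itself.

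With each library left out, values ranged from -0.097 to 0.134 for Hey1 on Day3, from -0.069 to 0.064 for Notch3 on Day5, from -0.106 to 0.001 for Notch3 and -0.123 to 0.05 for Jag1 on Day7, and from -0.07 to 0.183 for Dll1 on Day10. On Day12 they ranged from -0.075 to 0.019 for Notch3, -0.082 to 0.024 for Notch4, -0.135 to 0.133 for Jag2 and -0.158 to 0.105 for Dll1. Dll1 ranged from -0.086 to 0.199 on Day14 and from -0.143 to 0.033 from Day3 to Day7.

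The replicate numbers did not pair the libraries, since only 4 of 84 pairs of libraries with the same number had deviations correlated above 0.1 (median -0.01). With the replicate block, Hey1 on Day12 was lost (0.352, adjusted p = 0.052), Notch2 on Day7 was gained (0.218, adjusted p = 0.0399), and no other call changed. Depth limits the rarest pathway genes, such as Hes5, more than the members.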
